A study of Mus musculus with 6 samples.

Results

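The transcripts described here are those of the receptors for interleukin 4 (IL-4), interleukin 10 (IL-10) and interleukin 6 (IL-6), with the kinase and transcription factors they share. They were taken by name as 10 genes: Il4ra, Il13ra1, Il2rg, Il10ra, Il10rb, Il6ra, Il6st, Stat3, Stat6 and Tyk2. Of these, 9 had an array feature paired with their symbol alone, each through 1 feature, and Il2rg was not analysed here. The 9 were set among 22180 genes measured on the same arrays. The cells were J774A.1, an established macrophage-like line of the Balb/c mouse strain, kept in serum-supplemented RPMI-1640. The NPFF group was 3 cultures given neuropeptide FF (NPFF) at 1 nM in phosphate-buffered saline (PBS) for 18 h. The control group was 3 cultures given the PBS vehicle for 18 h, though the sample titles call them non-treated. NPFF is an amidated neuropeptide that acts through G-protein-coupled receptors. The titles name the cultures biological replicates without saying how they were separated, so the p-values reflect only how these 6 samples scattered, which may be partly technical.

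Cytokine receptors of this kind have no enzyme of their own and rely on bound Janus kinases (JAKs), which phosphorylate STAT transcription factors after the ligand brings the chains together. IL-4 is bound by the Il4ra chain, which pairs with Il2rg, the common gamma chain, or with Il13ra1 in the receptor that also answers IL-13, and signals mainly through Stat6. IL-10 is bound by Il10ra with Il10rb, and IL-6 by Il6ra with Il6st, better known as gp130; both signal mainly through Stat3. Tyk2 is a JAK bound by Il10rb, Il13ra1 and gp130 as well as by the type I interferon receptor. In macrophages the Stat6 route drives alternative activation, and the IL-10 route limits inflammatory gene expression.

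The promoters of the IL-4 and IL-13 receptor chains are shown because these 2 genes form 1 receptor. With all 6 arrays they stood on opposite sides of 0 in the comparison of NPFF with control. Without control 1 both were lower in NPFF, each with a log2 difference of -0.12. Each line gives the 250 bases before the annotated start in RefSeq on build GRCm38.p6, plus strand, at chr7:125552021-125552270 for Il4ra and chrX:36111858-36112107 for Il13ra1. Capitals mark matches to ATGNAAAT, the octamer pattern, or to GGGCGG, the GC box, searched on both strands.
Il4ra: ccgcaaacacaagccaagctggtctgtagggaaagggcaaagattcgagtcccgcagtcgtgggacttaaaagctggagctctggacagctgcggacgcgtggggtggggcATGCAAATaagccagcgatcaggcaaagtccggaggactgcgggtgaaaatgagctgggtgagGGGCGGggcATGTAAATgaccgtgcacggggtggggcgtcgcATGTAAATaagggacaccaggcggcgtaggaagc
Il13ra1: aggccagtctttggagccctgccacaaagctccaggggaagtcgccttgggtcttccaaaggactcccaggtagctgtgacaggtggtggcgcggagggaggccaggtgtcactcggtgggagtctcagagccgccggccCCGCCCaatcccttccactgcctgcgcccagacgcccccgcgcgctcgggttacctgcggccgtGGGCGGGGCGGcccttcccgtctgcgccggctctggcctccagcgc
The Il4ra stretch held 3 matches to the octamer pattern, the first ATGCAAAT and the others ATGTAAAT, and 1 GC box. The Il13ra1 stretch held 0 and 3, of which 2 overlap. These patterns were chosen after the sequences had been seen. Over 32851 promoter windows that also include the first 50 bases of the gene, 5.67% held the octamer pattern and 35.7% the GC box. Windows of that length were available for 8 of the 10 genes. Of these 8, 1 held the octamer pattern, that of Il4ra, and 5 held the GC box. None of the 8 held TTCNNNGAA or TTCNNNNGAA, the spacings preferred by Stat3 and Stat6, which 8.30% and 6.95% of all windows did. None held GAGGAAGT, a core bound by the macrophage factor PU.1, present in 3.20% of all windows. These are letter matches within short windows and say nothing of binding.

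Levels are log2 intensities after quantile normalization, 1 feature per gene, and differences are NPFF minus control on that scale. The arrays were not equally alike: within a group, the lowest Pearson r over genes (no independent replicates of one another) was 0.996 among NPFF arrays and 0.965 among controls. Control 1 stood farthest from the mean of the other 5 arrays, with a standard deviation (SD) over genes of 0.37, against 0.11 to 0.13 for the NPFF arrays, 0.21 for control 2 and 0.12 for control 3. The 8 macrophage markers lay between the 92.1st and 99.9th percentiles of signal. Markers of T and B cells, fibroblasts, epithelium, dendritic cells, neutrophils and mast cells reached at most the 62.7th. The summed log2 level of the macrophage markers ran from 88.7 to 89.5 in NPFF arrays and from 86.7 to 89.5 in controls, with the lowest sum in control 1. All cultures were of the same line, and what the lower sum in control 1 reflects was not tested.

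No receptor, STAT or kinase transcript of the 9 changed past the threshold, a Benjamini-Hochberg adjusted p of 0.05 over all genes in limma. The same held for all genes: 0 of 22180 passed (0%), 556 had an unadjusted p under 0.05 (2.51%), and unmoderated testing gave 724 at that level and 0 adjusted. With all 6 arrays, 7 of the 9 were higher and 2 lower in NPFF, with a median difference of 0.07, against 51.7% higher and a median of 0.0037 over all genes. Of the 6059 genes between the dimmest and the brightest of the 9 in signal, 40.0% were lower, with a median of 0.04, against 22.2% of the 9. Without control 1, 0 of the 9 were higher. Il13ra1 and Il10rb were the 2 lower transcripts, and in both every NPFF array lay below every control. All NPFF arrays lay below all controls in 4.92% of genes and above them in 3.67%, beside 2 of 9 (22.2%) and 0 of 9 here; with 9 transcripts, 1 more or fewer moves that share widely. Differences of the 9 lay between -0.20 and 0.13, or folds of 0.87 to 1.10.

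**Figure D1:**
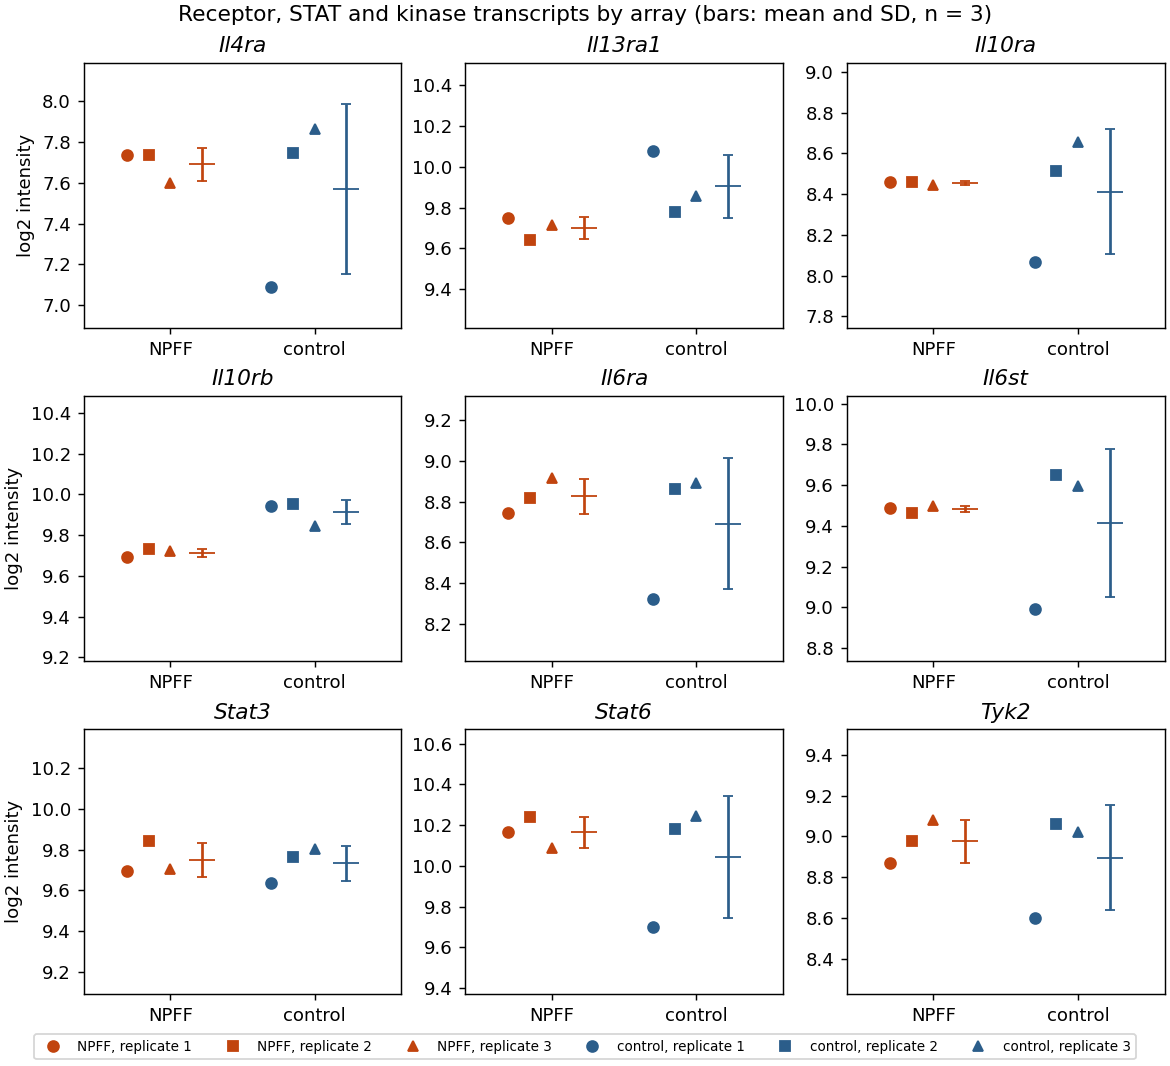
Log2 intensity of the 9 measured transcripts in each array, NPFF left and control right, with replicates marked by symbol and bars for the mean and SD (n = 3 each); every panel spans the same log2 height. NPFF arrays lie below all controls for Il13ra1 and Il10rb, and control 1 lies well below the other 5 arrays for Il4ra, Il10ra, Il6ra, Il6st, Stat6 and Tyk2.

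Among the IL-4 and IL-13 receptor chains, Il4ra (feature 17482943), which binds the cytokine, measured 7.74, 7.74 and 7.60 in NPFF arrays, against 7.09, 7.75 and 7.86 in controls. Control 1 was the lowest of the 6 arrays and controls 2 and 3 the highest, so the groups overlapped. The means were 7.69 ± 0.08 in NPFF and 7.57 ± 0.42 in control (SD, n = 3 each), a difference of 0.12 (standard error, SE, 0.20). Its 95% confidence interval, -0.36 to 0.60, allows either direction, and without control 1 the difference was -0.12. Il13ra1 (feature 17534051), the partner chain that also binds IL-13, measured 9.75, 9.64 and 9.71 in NPFF arrays, against 10.08, 9.78 and 9.86 in controls. All NPFF arrays were below all controls, and control 1 was the highest array. Il13ra1 averaged 9.70 ± 0.05 in NPFF and 9.90 ± 0.15 in control (SD, n = 3 each), a difference of -0.20 (SE 0.09, interval -0.42 to 0.02), or -0.12 without control 1. The exact permutation test over the 6 arrays gave a two-sided p = 0.10, the smallest that 20 splits allow, and by limma the adjusted p = 1.00.

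Of the IL-10 receptor, the ligand-binding chain and the shared chain behaved differently across the arrays. Il10ra (feature 17526492), the chain that binds IL-10, measured 8.46, 8.46 and 8.44 in NPFF arrays, against 8.07, 8.52 and 8.65 in controls. The 3 NPFF arrays differed by 0.01 (SD) and fell between control 1 and the other 2 controls. Its mean difference was 0.04 (SE 0.15, interval -0.32 to 0.40), and -0.13 without control 1. Il10rb (feature 17327054), the chain shared with the receptors for IL-22 and lambda interferons, measured 9.69, 9.73 and 9.72 in NPFF arrays, against 9.94, 9.95 and 9.84 in controls. Here control 1 stood with control 2, and the 2 groups were apart by more than the range within either. Il10rb averaged 9.71 ± 0.02 in NPFF and 9.91 ± 0.06 in control (SD, n = 3 each), a difference of -0.20 (SE 0.06), or 0.87-fold. The 95% interval of Il10rb, -0.35 to -0.05, left out 0 before adjustment, but by limma the adjusted p = 1.00 over all genes. By p it ranked 146th of 22180 genes. The exact permutation p was 0.10, the smallest possible.

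For IL-6, the ligand-binding chain and the signalling chain overlapped between groups. Il6ra (feature 17407138) measured 8.74, 8.82 and 8.92 in NPFF arrays, against 8.32, 8.86 and 8.89 in controls. The highest array was NPFF 3 and the lowest control 1, and the mean difference was 0.13 (SE 0.16, interval -0.25 to 0.52), and -0.05 without control 1. Il6st (feature 17289889), the gp130 chain used by the whole IL-6 family, measured 9.49, 9.46 and 9.50 in NPFF arrays, against 8.99, 9.65 and 9.60 in controls. As with Il10ra, the NPFF arrays were tightly placed, with an SD of 0.02, and lay between control 1 and the other controls. The difference of Il6st was 0.07 (SE 0.17, interval -0.35 to 0.49), and -0.14 without control 1.

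The transcription factors and the kinase showed no separation either. Stat3 (feature 17269717), the main effector of IL-10 and IL-6, measured 9.69, 9.84 and 9.71 in NPFF arrays, against 9.64, 9.76 and 9.80 in controls. Its groups interleaved, its SD was 0.08 in NPFF and 0.09 in control, and the difference was 0.02 (SE 0.08). The interval of -0.17 to 0.20 was the second narrowest of the 9, after that of Il10rb. Stat6 (feature 17238064), the effector of IL-4 and IL-13, measured 10.17, 10.24 and 10.09 in NPFF arrays, against 9.70, 10.18 and 10.25 in controls. Only control 1 stood apart, and the difference was 0.12 (SE 0.15, interval -0.24 to 0.48). Tyk2 (feature 17524620) measured 8.87, 8.98 and 9.08 in NPFF arrays, against 8.60, 9.06 and 9.02 in controls, a difference of 0.08 (SE 0.14, interval -0.25 to 0.41). Without control 1 the differences were -0.03 for Stat3, -0.05 for Stat6 and -0.07 for Tyk2, and Stat3 also differed by -0.03 without NPFF 2. By limma the adjusted p = 1.00 for each of Il4ra, Il10ra, Il6ra, Il6st, Stat3, Stat6 and Tyk2.

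Taken array by array, 7 of the 9 transcripts were lowest in control 1, and Il13ra1 was highest there. The deviation of control 1 from the mean of the 6 arrays was -0.54 for Il4ra, -0.45 for Il6st, -0.44 for Il6ra, -0.41 for Stat6, -0.37 for Il10ra, -0.34 for Tyk2 and -0.11 for Stat3. For Il13ra1 it was 0.27 and for Il10rb 0.13. The median deviation of the 9 in control 1 was -0.37, against -0.15 over the 6059 genes in the same range of signal and -0.07 over all genes. Control 1 was the lowest array for 58.4% of those 6059 genes and for 48.9% of all genes. The median SD of the 9 was 0.08 in NPFF and 0.30 in control, against 0.07 and 0.14 over all genes. Whether the culture, the RNA or the array of control 1 differed was not tested.

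**Figure D2:**
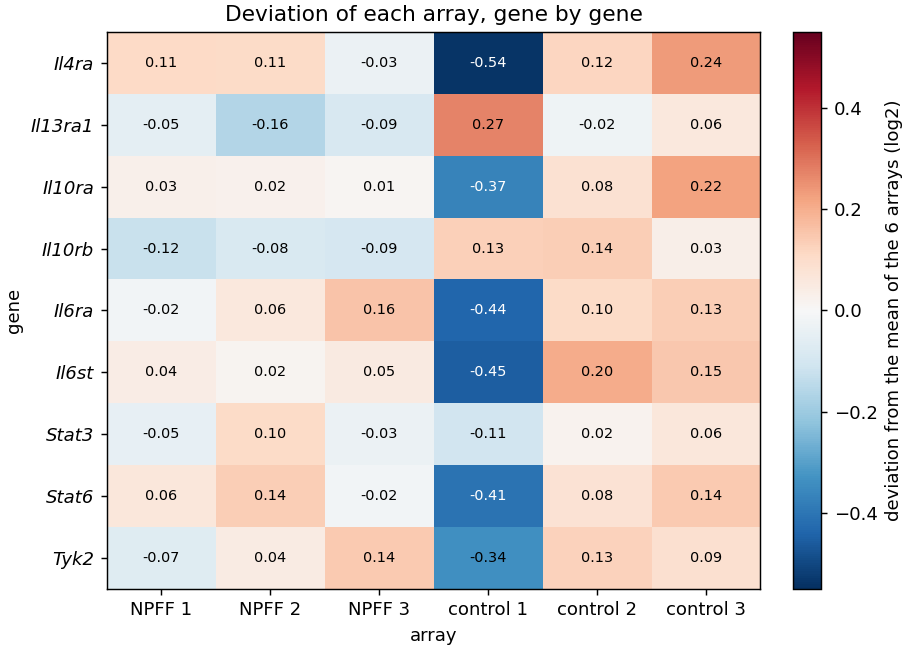
Deviation of each array (columns) from the mean of the 6 arrays, in log2, for the 9 measured transcripts (rows), red above and blue below the mean. The control 1 column runs from -0.54 for Il4ra to 0.27 for Il13ra1, and no other array departs from the mean by more than 0.24.

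Without control 1, all 9 transcripts were lower in NPFF, with a median difference of -0.12, and 0 of 9 were higher. Against the same 2 controls 60.9% of all genes were lower, with a median of -0.02, as were 62.0% of the 6059 genes in the same range of signal. Of the marker lists, T cell markers were lower in 4 of 4 cases (median -0.11), dendritic cell markers in 3 of 4 (-0.11) and neutrophil and mast cell markers in 4 of 5 (-0.05). Macrophage markers were lower in 4 of 8 (-0.0027), B cell markers in 2 of 3 (-0.0017), fibroblast markers in 1 of 5 (0.04) and epithelial markers in 1 of 4 (0.01). The cultures were of a macrophage-like line. The median percentile of signal was 25.6 for T cell markers, 44.1 for dendritic cell markers and 10.6 for neutrophil and mast cell markers. What the differences of these markers reflect was not tested. The difference of largest size was that of Il10rb, -0.18 (SE 0.06), followed by Il6st at -0.14 (SE 0.06) and Il10ra at -0.13 (SE 0.06). The standard error of Il4ra, 0.20 with all arrays, was 0.07 here, and its interval ran from -0.28 to 0.05. Control 1 was singled out as the array farthest from the others, and leaving it out can by itself narrow the spread of the controls. Standard errors, intervals and p-values without control 1 are therefore descriptive. In 5 of the 9, Il4ra, Il13ra1, Il10ra, Il10rb and Il6st, all NPFF arrays lay below both remaining controls, as they did in 18.3% of all genes. These 5 are receptor chains, but so is Il6ra, which overlapped. The other 3, Stat3, Stat6 and Tyk2, overlapped too. Of the 111 measured genes of the related lists described below, 32 lay below both remaining controls in the same way. By limma on these 5 arrays, Il10rb and Il6st had an unadjusted p under 0.05, as did 10.8% of all genes, and the lowest adjusted p of the 9 was 0.382, for Il10rb. Against control 3 alone, 9 of 9 were lower as well, as were 52.0% of all genes.

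**Figure D3:**
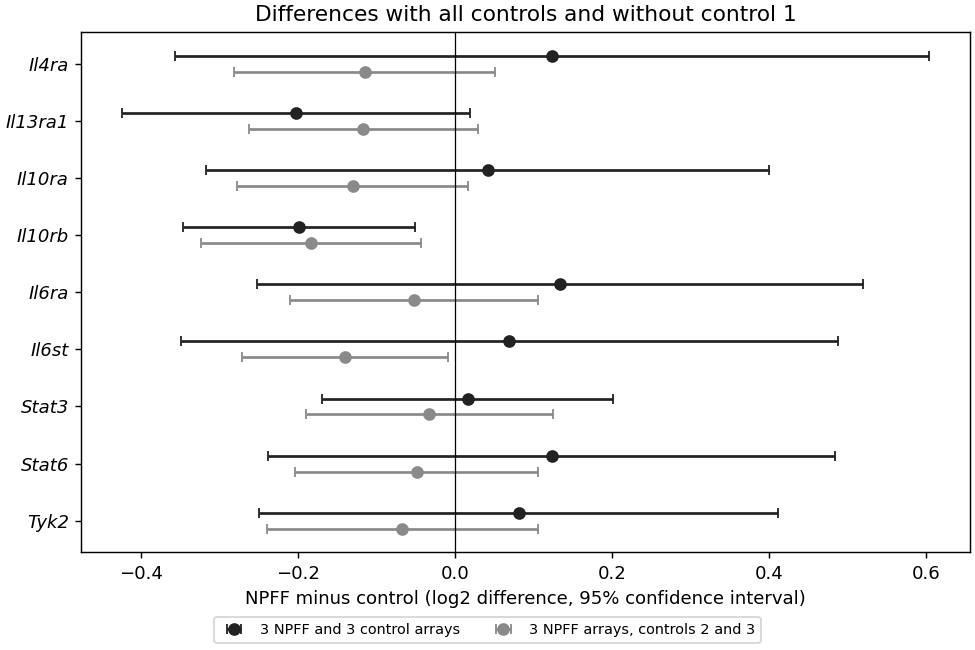
Difference of each transcript, NPFF minus control in log2, with its 95% confidence interval from limma, in black for all 6 arrays and in grey without control 1. In black 7 of 9 points lie right of 0, and in grey all 9 lie left of it. Il10rb has both intervals left of 0 and Il6st only the grey one. The grey intervals leave out the array farthest from the others and are descriptive.

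The ligands of these receptors were 7 higher and 12 lower of 19 measured, with a median difference of -0.01. Il6 measured 5.97, 6.13 and 5.83 in NPFF arrays, against 5.93, 6.47 and 6.51 in controls. Its difference was -0.33 (SE 0.17), with NPFF arrays and control 1 low and controls 2 and 3 high, and was -0.51 without control 1. Osm, which encodes oncostatin M, another gp130 cytokine, measured 8.01, 8.06 and 8.11 in NPFF arrays, against 8.30, 8.25 and 8.14 in controls. Its groups did not overlap, and the difference was -0.17 (SE 0.07). The lambda interferon Ifnl3 differed by -0.24 (SE 0.16), and by -0.08 without control 1. Il10 differed by -0.06 (SE 0.06), Il4 by -0.01 (SE 0.06) and Il13 by -0.0051 (SE 0.07), and the signs of Il4 and Il13 turned with single arrays left out, between -0.05 and 0.01 for Il4 and between -0.05 and 0.04 for Il13. Il10 and Il4 were dim, at the 12.2nd and 9.25th percentiles of signal, and Il6 was at the 40.1st.

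Further receptor chains, which pair with 1 of the 10 or use Tyk2, and decoy receptors were 7 higher and 13 lower of 20. Their median of -0.01 was -0.05 without control 1, 0.02 without control 2 and 0.0010 without NPFF 3. Il7r, the IL-7 receptor chain that pairs with the common gamma chain, measured 7.48, 7.43 and 7.35 in NPFF arrays, against 7.48, 7.97 and 7.86 in controls. NPFF 1 and control 1 were nearly level, and the difference was -0.35 (SE 0.13), or -0.50 without control 1. Cntfr, the ciliary neurotrophic factor receptor, differed by -0.14 (SE 0.08), at the 37.9th percentile of signal. Ifnar1, the interferon receptor chain that binds Tyk2, differed by -0.10 (SE 0.10), or -0.18 without control 1. Il13ra2, the decoy receptor for IL-13, differed by -0.06 (SE 0.07) at the 23.1st percentile of signal, and by -0.02 without control 1.

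Other kinases, adaptors and STATs were 6 higher and 9 lower of 15, with a median of -0.04 that was 0.02 without control 2. Gab2, a scaffold that recruits the phosphatase Ptpn11 and phosphatidylinositol 3-kinase, measured 9.97, 9.84 and 9.92 in NPFF arrays, against 10.10, 10.32 and 10.11 in controls. All NPFF arrays were lower, with a difference of -0.27 (SE 0.09). Pik3r1, the regulatory subunit of that kinase, differed by -0.25 (SE 0.11), also without overlap, and by -0.13 without control 1. The adaptor Shc1 had a difference of 0.41 (SE 0.22), which was 0.15 without control 1. Among the kinases, Jak1 measured 9.85, 9.86 and 9.83 in NPFF arrays, against 9.81, 9.93 and 9.84 in controls, and differed by -0.01 (SE 0.06), with a range of -0.04 to 0.02 as single arrays were left out. Jak2 differed by -0.19 (SE 0.12), with no overlap, and by -0.05 without control 1, which was the highest array. Jak3 had no feature of its own and was not analysed here.

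The brakes on the pathway, which are SOCS and PIAS proteins, phosphatases and the adaptor Sh2b3, were 11 higher and 7 lower of 18, with a median of 0.03 that was -0.03 without control 1. Socs3, induced by Stat3 and an inhibitor of gp130, measured 7.09, 7.32 and 7.22 in NPFF arrays, against 6.93, 7.29 and 7.30 in controls. The groups overlapped, and the difference was 0.03 (SE 0.12), or -0.09 without control 1. Socs1, an inhibitor of JAKs, differed by 0.03 (SE 0.16) with all arrays and by -0.15 without control 1. Pias3, an inhibitor of Stat3, differed by -0.14 (SE 0.06) and Socs2 by -0.14 (SE 0.07), both without overlap, and Socs7 by -0.19 (SE 0.09). Of the 18 brakes, all NPFF arrays lay below all controls in 2 and above them in 2, against 4.92% and 3.67% of all genes. Those above were Socs5, at 0.27 (SE 0.15), and Ptpn6, at 0.15 (SE 0.11), or 0.10 and 0.04 without control 1. Socs5 and Ptpn6 were named after their values were seen.

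Stat6 target genes were 7 higher and 13 lower of 20, with a median of -0.04, and Stat3 target genes 13 higher and 6 lower of 19, with a median of 0.03 that was -0.04 without control 1. Among Stat6 targets, the lectin Mgl2 differed by -0.29 (SE 0.13), with a range of -0.42 to -0.18 as single arrays were left out, the nuclear receptor Pparg by -0.16 (SE 0.08) and the chitinase-like Chil4 by -0.18 (SE 0.14). Chil4 was dim, at the 11.2nd percentile of signal, and its difference was -0.02 without control 1. Arg1, the arginase that marks alternative activation, measured 5.89, 5.84 and 5.85 in NPFF arrays, against 5.88, 5.89 and 6.01 in controls, a difference of -0.07 (SE 0.07). Arg1 was at the 32.0th percentile of signal and Pparg at the 44.8th, while markers of other cell types reached up to the 62.7th. Among Stat3 targets, the transcription factor Cebpd measured 6.94, 6.77 and 6.90 in NPFF arrays, against 7.09, 7.23 and 7.05 in controls. All NPFF arrays were lower for Cebpd, with a difference of -0.25 (SE 0.08). Fosl2 differed by 0.14 (SE 0.09) and Cebpb by 0.24 (SE 0.15), or by 0.06 and 0.07 without control 1.

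Over the 111 measured genes of these lists, 0 passed limma's adjusted threshold and 4 had an unadjusted p under 0.05, against 2.51% of all genes. These were Osm, Il7r, Gab2 and Cebpd, all lower in NPFF, as were 371 of the 556 such genes overall. All NPFF arrays lay below all controls in 11 (9.91%) and above them in 3 (2.70%), against 4.92% and 3.67% of all genes. Without control 1, 79 of the 111 were lower, against 60.9% of all genes. By list these were 13 of 19 ligands, 14 of 20 receptor chains, 11 of 15 kinases, adaptors and STATs, 10 of 18 brakes, 17 of 20 Stat6 targets and 14 of 19 Stat3 targets. The Stat3 targets had a summed log2 level of 153.1 to 154.4 in NPFF arrays and of 148.5 to 155.2 in controls, with the lowest sum in control 1.

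**Figure D4:**
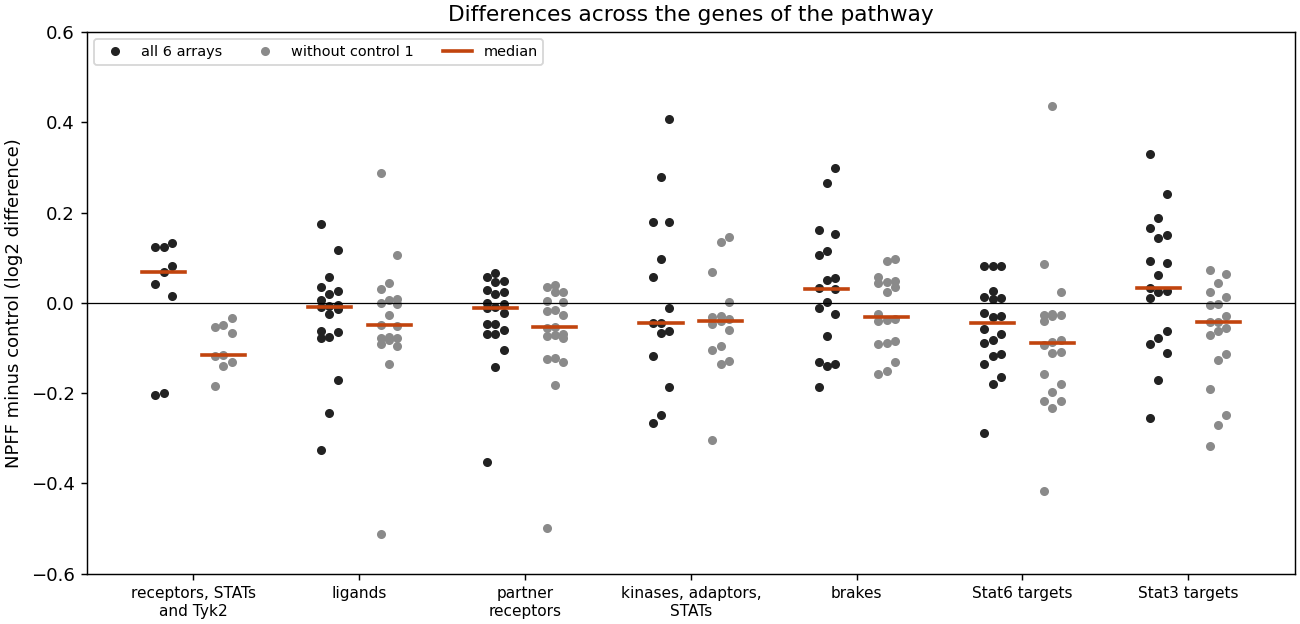
Difference of each gene, NPFF minus control in log2, by its role in the pathway, in black with all 6 arrays and in grey without control 1, with red bars at the medians. The median of the receptors, STATs and Tyk2 is 0.07 in black and -0.12 in grey, and the other medians lie between -0.09 and 0.03.

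The genes most like Il4ra over the 6 arrays were Plcg2, Ptp4a2 and Ikbke, with Pearson r of 0.998, 0.998 and 0.997 among 10224 genes of above-median signal. Those most like Stat6 were Diablo, Lemd2 and Trappc12, with r from 0.998 to 0.999, and those most like Stat3 were Arl16, Zfp952 and Smg9, with r from 0.988 to 0.992. These 6 points share control 1 as their extreme for Il4ra and Stat6.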

How the data were processed

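Transcripts were measured on Affymetrix whole-transcript arrays from biotin-labelled total RNA, per the labels' protocols. The deposited values are log2 intensities per feature, judging by values between 4.59 and 14.0. How the authors scanned, corrected and normalized them, and on which genome build, is not given in the sources used here. The deposited arrays did not share 1 distribution (sorted values departed by up to 0.17), so the 33794 features were quantile-normalized. A platform annotation named 23521 of them with exactly 1 symbol. The brightest feature per gene was kept, giving 22180 genes, with no filter on dim ones. Groups came from the sample titles. NPFF was compared with control in limma (version 3.58.1, R 4.3.3) by lmFit and eBayes on group alone, with 4 residual and 2.49 prior degrees of freedom, two-sided and Benjamini-Hochberg adjusted over all genes. Arrays carry no counting depth; 3 per group limit the precision. No 2 arrays were identical.

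The 10 genes and the lists were chosen with earlier results of these data known. All 10 were to be described, with, from each other list, the 3 genes of smallest p and fixed ones, among them Il4, Il13, Il10, Il6, Jak1, Jak2, Jak3, Socs1, Socs3, Il13ra2 and Arg1; a fixed gene not in this list is not reported here. Likeness was ranked by Pearson r for Il4ra, Stat3 and Stat6, predicted symbols left out. Arrays of 22180 genes were simulated with the spread of each group and gene. Of genes changed by 0.5, 1 and 2 log2, 53.7%, 77.6% and 93.9% were recovered. Of 175 calls 25 were false, a larger share than the threshold of 0.05. Simulated with the pooled spread of each gene instead, 6 of 156 calls were false. The measured receptors, STATs and Tyk2 differed by -0.20 to 0.13, and changes that small were not simulated. A spread set gene by gene need not hold a deviation shared by many genes in 1 array. Control 1 was the lowest array for 48.9% of all genes. The rates therefore do not describe how well changes would be recovered in these arrays. Alternatives covered normalization, the feature per gene, dim genes, moderation, array weights, the replicate block and left-out arrays. Same-numbered arrays had correlated deviations from their group means of 0.23, 0.45 and -0.33, so the numbers were not taken to pair them.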

Additional observations from a re-analysis of the deposited data

How the results depend on the processing

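Of the 16 alternatives, leaving aside the fit with a lone control, none gave a gene past an adjusted p of 0.05, and 0 of the 9 transcripts passed. Unadjusted p-values under 0.05 numbered between 235 (without NPFF 1) and 2397 (without control 1). The number of the 9 higher in NPFF was 7 with all arrays, and 0 with gene-by-gene array weights, without controls 1 and 2, and without control 1; over the left-out arrays it ran from 0 to 7. Il13ra1 and Il10rb stayed lower in all 16, between -0.27 and -0.12 and between -0.24 and -0.13. With array weights, the differences turned to -0.11 for Il4ra, -0.14 for Il10ra, -0.048 for Il6ra, -0.10 for Il6st, -0.042 for Stat3, -0.045 for Stat6 and -0.054 for Tyk2. Without controls 1 and 2, where the lone control is assumed to vary like the other arrays, they were -0.17, -0.20, -0.067, -0.11, -0.052, -0.082 and -0.047 in the same order of genes. Leaving out each array in turn gave values from -0.12 to 0.27 for Il4ra, -0.13 to 0.16 for Il10ra, -0.052 to 0.23 for Il6ra, -0.14 to 0.19 for Il6st, -0.033 to 0.050 for Stat3, -0.049 to 0.23 for Stat6 and -0.067 to 0.17 for Tyk2. For these genes the lowest of the range was without control 1. Stat3 also turned to -4.9e-05 with the values as deposited, to -0.038 after cyclic loess and to -0.032 without NPFF 2. The median of the 9 was -0.10 with array weights and -0.11 without controls 1 and 2, and ran from -0.12 to 0.17 over left-out arrays. The ligands' median was -0.041 and the brakes' median -0.036 with array weights, and the brakes' median was -0.037 without controls 1 and 2. Over left-out arrays the median ran from -0.050 to 0.0053 for ligands, from -0.054 to 0.015 for the further receptor chains, from -0.041 to 0.022 for kinases, adaptors and STATs, and from -0.090 to -0.018 for Stat6 targets. The fit with the replicate number as a block cannot change a mean difference in this balanced design; it gave 0 genes past the threshold and 396 with an unadjusted p under 0.05. The cause of these turns was not tested. Array signal has no deposited background level, so dim transcripts such as Il4 and Il10 are limited by it to an unknown degree.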

Other observations

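Among the genes of these lists, Chil3, a chitinase-like protein used as a marker of alternative activation, varied most between arrays of 1 group; it was singled out after its values were seen. It measured 6.23, 5.52 and 5.84 in NPFF arrays, against 6.71, 4.99 and 5.86 in controls, and its difference was 0.01 (SE 0.42). Without control 1 the difference of Chil3 was 0.44, and with single arrays left out it ranged from -0.42 to 0.44.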
